A study of Mus musculus with 10 samples.

Results

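The genes described here are the hormone receptors and lineage regulators of the mammary epithelium: Esr1, Pgr, Prlr, Elf5, Stat5a, Stat5b, Gata3, Foxa1 and the ligand gene Areg. They were chosen by name, and every probe set annotated to them on an Affymetrix mg_u74av2 array was taken, on all 10 arrays. Of these 9 genes, 7 had a probe set, out of 8251 genes named on the array, and together they had 11 probe sets. Esr1 was read by 4 probe sets, Stat5a by 2, and Pgr, Stat5b, Elf5, Gata3 and Foxa1 by 1 each. No probe set was annotated to Prlr or Areg in the annotation used here, and both genes were not analysed here.

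The arrays measured total RNA of mammary tumours of MMTV-PyMT mice, in which the mouse mammary tumour virus promoter drives the polyoma middle T oncogene in the mammary epithelium, so every group carried the transgene. Of the 10 arrays, 9 carry a strain name in the title: FVBn on 1 array (B), and ILn, LP, MOLF and NZB on 2 arrays each (A and B). A further array names no strain and entered no comparison between strains. Groups were taken from the titles, because the strain field of the labels reads FVB/Nj for each of the 10 arrays; every array is labelled as from an adult female of 90 days. The titles call the RNA of the 9 arrays a mix without saying of what, and nothing says that arrays A and B came from separate animals, so the p-values measure only the spread between arrays, which may be technical. In bulk tumour RNA, fewer cells of a type and less RNA per cell cannot be told apart.

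Oestrogen and progesterone act on the mammary epithelium through the nuclear receptors encoded by Esr1 and Pgr, which are present in a part of the luminal cells, and these cells signal to their neighbours through secreted ligands such as amphiregulin, the product of Areg. Prolactin acts through its receptor, encoded by Prlr, and the kinase JAK2 on the transcription factors STAT5A and STAT5B, which drive alveolar differentiation and milk protein genes. Elf5 encodes an ETS factor of alveolar luminal cells that acts with prolactin signalling, Gata3 encodes a zinc finger factor needed to form and keep the luminal lineage, and Foxa1 encodes a forkhead factor that opens chromatin for the oestrogen receptor. PyMT tumours are known to lose oestrogen and progesterone receptor protein as they progress.

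The DNA just before the annotated starts of these genes was set beside their levels for reference, since the arrays read RNA and not binding. Promoter windows for 9 of 9 genes were found in RefSeq, build GRCm38.p6, and 4 of them are shown: those of Esr1 and Pgr, whose signals lay at the detection floor on most or all arrays, that of Gata3, which was bright on every array, and that of Foxa1, which differed most on the array with no strain name. Each is the 250 bases before the annotated start (for Esr1 the most upstream of 2 starts), written 5′ to 3′ on the strand of the gene, and capitals mark the motif matches. Both strands were searched for the letters of 4 motifs. TTCNNNGAA is the site of STAT factors. AGATAA is a site of the zinc finger family of Gata3. TGTTTAC is a forkhead site. GGTCA is a half-site of the oestrogen receptor. No match in these windows overlapped another.
Esr1, chr10:4611739-4611988, plus strand: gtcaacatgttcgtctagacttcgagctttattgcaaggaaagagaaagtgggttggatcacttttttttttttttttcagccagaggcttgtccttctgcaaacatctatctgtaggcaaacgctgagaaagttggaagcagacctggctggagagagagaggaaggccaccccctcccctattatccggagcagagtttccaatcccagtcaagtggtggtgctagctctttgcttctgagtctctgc
Pgr, chr9:8899583-8899832, plus strand: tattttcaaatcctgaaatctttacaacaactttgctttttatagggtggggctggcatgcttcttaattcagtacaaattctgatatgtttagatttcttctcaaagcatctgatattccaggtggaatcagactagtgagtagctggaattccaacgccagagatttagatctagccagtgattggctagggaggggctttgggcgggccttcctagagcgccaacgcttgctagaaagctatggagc
Gata3, chr2:9878601-9878850, minus strand: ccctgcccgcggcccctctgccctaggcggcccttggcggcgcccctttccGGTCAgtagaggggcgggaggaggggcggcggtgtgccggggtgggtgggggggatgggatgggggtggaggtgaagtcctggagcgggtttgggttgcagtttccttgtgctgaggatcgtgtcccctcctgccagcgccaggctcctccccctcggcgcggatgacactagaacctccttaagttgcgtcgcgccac
Foxa1, chr12:57546112-57546361, minus strand: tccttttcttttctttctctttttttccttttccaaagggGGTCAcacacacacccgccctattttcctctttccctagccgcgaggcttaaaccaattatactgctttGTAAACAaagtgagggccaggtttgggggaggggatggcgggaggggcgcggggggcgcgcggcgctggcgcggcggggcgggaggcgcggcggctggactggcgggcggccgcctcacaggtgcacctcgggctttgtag

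The windows of Esr1 and Pgr shown held none of the 4 motifs; that of the second Esr1 start, not shown, held the STAT letters once, 188 to 180 bases before it. The window of Gata3 held 1 GGTCA, 199 to 195 bases before the start. That of Foxa1 held 1 GGTCA, 210 to 206 bases before the start, and the forkhead letters on the opposite strand, 141 to 135 bases before it. Among all 32841 windows of the same length, GGTCA was found in 35.2%, the GATA letters in 9.99%, the STAT letters in 7.02% and the forkhead letters in 3.17%. The windows also differed in composition: Gata3 had 70% G and C and 19 CpG, Foxa1 62% and 21, Esr1 47.6% and 4, and Pgr 43.6% and 4, against medians of 52.4% and 6 over all windows. A match describes letters only.

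Levels are given as log2 intensity after quantile normalization over the 9 strain arrays, with every value under 4.75 (an intensity of 27.0, the 30th percentile) set to that floor. A probe set was tested where it lay above the floor on at least 2 of the 9 arrays, which left 9899 probe sets. Of the 11 probe sets of these genes, 7 were tested, from 6 genes, and 4 lay at the floor on all 9 arrays. Tests were made with limma, with p-values adjusted by Benjamini and Hochberg over all 9899 probe sets and called at 0.05. The arrays MOLF A and NZB B were unlike the other 7: their log2 values correlated at 0.927 with each other, at 0.812 to 0.868 with the rest, and the rest among themselves at 0.931 or more. The luminal keratins Krt8 (10.81 to 11.38) and Krt18 (10.18 to 11.06) were bright on all 9 arrays. Of the 8 basal and myoepithelial markers with a probe set, Krt5 and Krt14 were at the floor on all 10. Myh11 was at the floor on 3 of the 9 strain arrays and Cnn1 on 6, while Trp63, Acta2, Mylk and Snai2 were above it on all 9.

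No probe set of these genes passed the test in any comparison: 0 of 42 tests in limma had an adjusted p under 0.05, and 5 had an unadjusted p under 0.05. These 5 were Stat5b in the F test and in the ILn, NZB and FVBn comparisons, which share arrays, and Elf5 in NZB. Over all tested probe sets the share called was 0.748% in the F test over ILn, LP, MOLF and NZB, with 782 at an unadjusted p under 0.05. For a strain against the mean of the other 3, it was 0.404% for ILn, 0.313% for LP, 0.414% for MOLF and 0.101% for NZB, with 704, 563, 636 and 832 probe sets at an unadjusted p under 0.05. For the mean of these 4 strains against the FVBn array it was 0.313%, with 338. The range over the 9 arrays had a median of 1.09 on the log2 scale over all tested probe sets, with quartiles of 0.76 and 1.59. Gata3 (0.59), Elf5 (0.70) and 1 Stat5a probe set (0.60) were steadier than this median, and Stat5b (2.09) varied more than 87.8% of the tested probe sets. Of the 7 tested probe sets, none had both LP, both MOLF or, on the high side, both NZB arrays beyond all 6 arrays of the other 3 strains. Over all tested probe sets this was so for 4.47% above and 2.55% below in LP, 2.84% above and 3.38% below in MOLF, and 3.74% above in NZB.

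**Figure D1:**
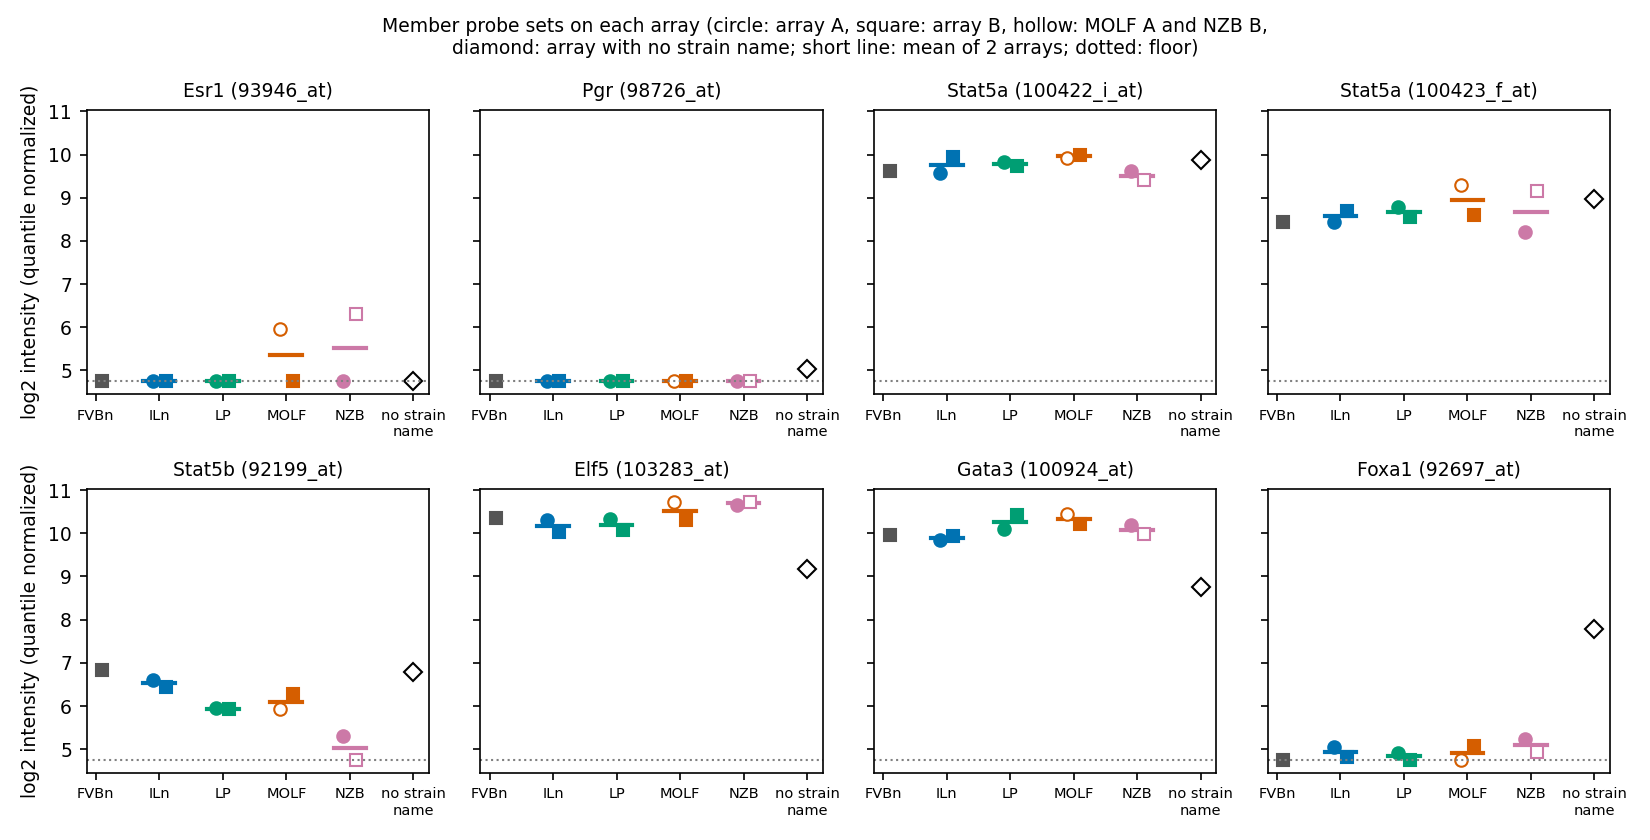
Log2 intensity (vertical axis, quantile normalized) of 8 probe sets of these genes on each array, grouped by the strain name in the title. Points are arrays, the short line is the mean of 2 arrays, hollow points are MOLF A and NZB B, the diamond is the array with no strain name, and the dotted line is the floor of 4.75. Elf5 and Gata3 lay between 9.85 and 10.73 on all 9 strain arrays, Pgr lay on the floor on all 9, and Foxa1 reached 7.78 on the array with no strain name only.

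The oestrogen receptor gene Esr1 was at or near background. Probe sets 161113_at, 93945_at and 93947_g_at were at the floor on all 10 arrays. The fourth, 93946_at, was at the floor on 7 of the 9 strain arrays and read 5.97 on MOLF A and 6.31 on NZB B. These are the 2 unlike arrays, and their partners MOLF B and NZB A were at the floor, so the strains overlapped. The NZB difference was 0.57 ± 0.45 (SE; limma adjusted p = 0.702, 95% interval -0.49 to 1.63), and it became -0.20 when NZB B was left out. The progesterone receptor gene Pgr, read by 98726_at, was at the floor on all 9 strain arrays, and read 5.03 on the array with no strain name. A probe at the floor gives only an upper bound, so differences in Esr1 or Pgr between strains below that floor were not measurable here.

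Stat5b, which encodes a factor activated by prolactin and growth hormone receptors, showed the largest differences between strains among these genes. Its probe set 92199_at read 6.84 on the FVBn array, 6.60 and 6.45 on ILn A and B, 5.94 and 6.27 on MOLF A and B, 5.95 and 5.93 on LP A and B, and 5.31 on NZB A, and was at the floor on NZB B. Both ILn arrays lay above all arrays of LP, MOLF and NZB, a pattern that 6.60% of tested probe sets showed for ILn, and both NZB arrays lay below all arrays of the other 3 strains, which 4.24% showed for NZB. The strain means (± SD, n = 2) ran from ILn (6.53 ± 0.11) through MOLF (6.10 ± 0.24) and LP (5.94 ± 0.01) to NZB (5.03 ± 0.40). MOLF and LP, the neighbours in the middle of this order, overlapped.

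NZB was lower than the mean of ILn, LP and MOLF by a difference of -1.16 ± 0.30 (SE), 2.23-fold, with a 95% interval of -1.86 to -0.45. The unadjusted p was 0.00570 and the limma adjusted p was 0.368. Since NZB B was held at the floor, its difference is measured only as a bound; without both MOLF A and NZB B the difference was -0.93, with an adjusted p of 0.308. ILn was higher than the other 3 by 0.83 ± 0.30 (adjusted p = 0.589 in limma), and the 4 strains together were lower than FVBn by a difference of -0.94 ± 0.39 (adjusted p = 0.999 in limma), the FVBn array being a single one. The F test over the 4 strains gave an adjusted p of 0.494. Among the 5 arrays that share the latest date in the title, NZB differed from the other 3 by -0.90 and ILn by 0.61; of the 2 arrays of another shared date, ILn A exceeded NZB B by 1.85.

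The arrays on which Stat5b was brightest, FVBn B, ILn A and ILn B, were also those highest in markers of salivary or lacrimal gland, which were present at a lower level on MOLF. Of 10 listed markers of these glands, 8 were measured; their mean log2 intensity was 10.60 to 10.78 on these 3 arrays, 7.35 and 7.61 on MOLF A and B, and 5.28 to 5.70 on the LP and NZB arrays. Their summed intensity was 24183 to 32157 on the former 3 arrays, 4335 and 5216 on MOLF, and 365 to 542 on LP and NZB, where 3 to 5 of the 8 markers were at the floor. The log2 ratio of the 3′ to the 5′ actin probe set, a measure of RNA quality, was likewise 0.22 to 0.28 on those 3 arrays and 0.60 to 1.12 on the other 6. The 9 fibroblast markers had a mean log2 intensity of 8.21 to 8.42 on those 3 arrays and 7.78 to 7.996 on the other 6, with summed intensities of 4936 to 5695 and 3288 to 4114. Of these markers, Col1a1, Col3a1, Dcn and Lum were higher on each of those 3 arrays than on the other 6. Others were not: Col1a2 was lowest on ILn A (9.07) and highest on NZB B (10.17). Fbln2 was highest on NZB (9.06 and 9.39) and Pdgfrb on MOLF A (6.51). The 10 skeletal muscle markers divided the arrays otherwise. Their mean log2 intensity was 9.03 to 9.60 on LP and NZB, the strains with the lowest Stat5b means. It was 7.61 and 7.59 on ILn A and B, 6.47 and 6.32 on MOLF A and B, and 5.73 on FVBn B. Their summed intensity was 8435 to 10914 on LP and NZB and 717 to 3002 on the other arrays. The part of any of these in the Stat5b values was not tested.

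Stat5a, whose product is the STAT5 protein most tied to lactation, was well above the floor on every array and differed less. By 100422_i_at it read 9.61 on FVBn, 9.58 and 9.93 on ILn, 9.82 and 9.72 on LP, 9.93 and 9.998 on MOLF, and 9.62 and 9.40 on NZB (arrays A and B in that order). The strain means were 9.96 ± 0.05 for MOLF, 9.77 ± 0.07 for LP, 9.76 ± 0.25 for ILn and 9.51 ± 0.15 for NZB (SD, n = 2). No strain had both arrays clear of all arrays of the other 3. NZB differed from the other 3 by -0.32 ± 0.14 (SE; unadjusted p = 0.0521, limma adjusted p = 0.596, 95% interval -0.64 to 0.00). The difference was -0.22 without both MOLF A and NZB B, -0.21 without NZB B alone and -0.54 after scaling by the median.

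The other Stat5a probe set, 100423_f_at, read 8.43 on FVBn, 8.45 and 8.70 on ILn, 8.79 and 8.55 on LP, 9.30 and 8.60 on MOLF, and 8.21 and 9.15 on NZB. Its highest values were on MOLF A and NZB B, and the strains overlapped: the means were 8.95 ± 0.49 for MOLF, 8.68 ± 0.66 for NZB, 8.67 ± 0.17 for LP and 8.57 ± 0.18 for ILn (SD, n = 2). MOLF differed from the other 3 by 0.31 ± 0.29 (SE; limma adjusted p = 0.918), and by -0.04 without MOLF A. The suffix f marks a probe set whose probes can match a family of related sequences, and Stat5a and Stat5b are close neighbours in sequence, so how far each Stat5 probe set reads the other gene is uncertain. By strain means, NZB was the lowest by 100422_i_at and by the Stat5b probe set, and the second highest by 100423_f_at. That rank rests on NZB B: NZB A had the lowest value of all 9 arrays by 100423_f_at, and NZB was -0.41 against the other 3 among arrays of the latest title date.

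Elf5, the alveolar ETS factor, was bright on every strain array. Probe set 103283_at read 10.36 on FVBn, 10.31 and 10.03 on ILn, 10.32 and 10.08 on LP, 10.72 and 10.31 on MOLF, and 10.66 and 10.73 on NZB. NZB had the highest mean (10.70 ± 0.05, SD, n = 2), followed by MOLF (10.52 ± 0.29), LP (10.20 ± 0.17) and ILn (10.17 ± 0.20), and each strain overlapped its neighbour in the order. NZB differed from the other 3 by 0.40 ± 0.15 (SE), 1.32-fold, with a 95% interval of 0.04 to 0.76, an unadjusted p of 0.0327 and a limma adjusted p of 0.555. The difference was 0.43 without MOLF A and NZB B and 0.52 among the arrays of the latest title date, and it was 0.16 where arrays were scaled by their median in place of quantiles.

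Gata3, the luminal zinc finger factor, was also bright on all 9 arrays. Probe set 100924_at read 9.96 on FVBn, 9.85 and 9.93 on ILn, 10.09 and 10.43 on LP, 10.45 and 10.20 on MOLF, and 10.18 and 9.98 on NZB. Both ILn arrays lay below all arrays of the other 3 strains, which 3.77% of tested probe sets showed for ILn, and no other strain stood clear. The means ran from MOLF (10.33 ± 0.17, SD, n = 2) and LP (10.26 ± 0.24) to NZB (10.08 ± 0.15) and ILn (9.89 ± 0.06). MOLF overlapped LP, and LP overlapped NZB. ILn differed from the other 3 by -0.33 ± 0.14 (SE), 1.26-fold, with a 95% interval of -0.66 to 0.00 and a limma adjusted p of 0.710; the difference was -0.34 among arrays of the latest title date and -0.14 after scaling by the median. FVBn B, ILn A and ILn B were the lowest of the 9 arrays for Gata3. They are also the arrays highest in the mean of the gland and of the fibroblast markers, and lowest in the actin ratio. The part of any of these was not tested.

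Foxa1, the forkhead partner of the oestrogen receptor, stayed near background on the strain arrays. Probe set 92697_at was at the floor on FVBn B, LP B and MOLF A, and read 5.04 and 4.83 on ILn A and B, 4.92 on LP A, 5.07 on MOLF B, and 5.24 and 4.94 on NZB A and B. All 9 values thus lay within 0.49 of each other, at the 7.26th percentile of ranges among tested probe sets, and the strains overlapped. NZB differed from the other 3 by 0.20 ± 0.19 (SE; limma adjusted p = 0.737, 95% interval -0.24 to 0.63), by 0.05 without NZB A, 0.35 without NZB B, and 0.30 without both MOLF A and NZB B. Values this close to the floor can hide larger differences in RNA, since the floor shortens them.

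**Figure D2:**
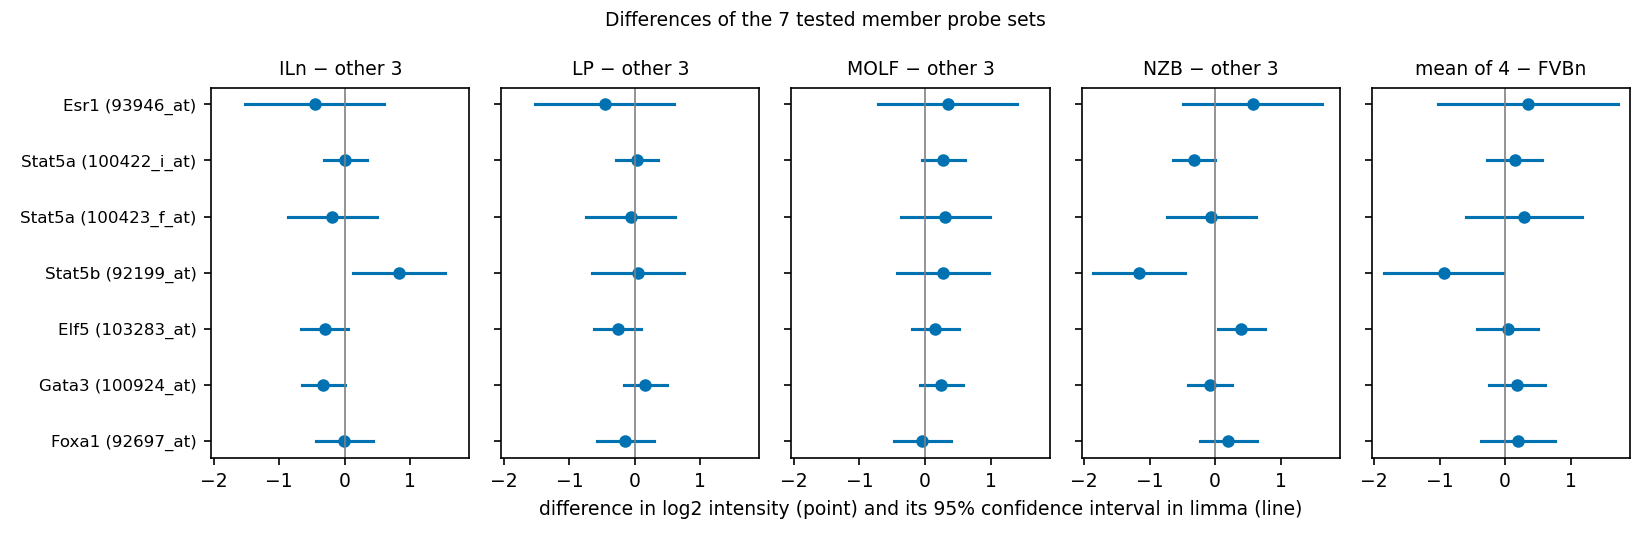
Differences in log2 intensity (horizontal axis) of the 7 tested probe sets, one panel for each comparison: ILn, LP, MOLF or NZB minus the mean of the other 3 strains, and the mean of the 4 strains minus FVBn. Points are differences and lines their 95% confidence intervals in limma; the Stat5b interval in NZB, -1.86 to -0.45, lies farthest from 0, and no difference passed the adjusted test.

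Other genes of the same pathways were taken from 4 lists. In the oestrogen and progesterone list (nuclear receptors, coregulators and known targets), 17 of 26 genes were tested, 5 had no probe set annotated and 4 did not pass the filter. Of the 17, 1 passed the F test, 1 was lower in MOLF, and none passed for ILn, LP, NZB or FVBn. That gene was Ltf, which encodes lactoferrin, an iron-binding milk protein and a target of oestrogen in other tissues. It read 10.73 and 10.51 on MOLF A and B, 11.52 and 11.57 on ILn, 11.76 and 11.66 on LP, 11.32 and 11.21 on NZB, and 11.21 on FVBn. Both MOLF arrays lay below the other 7. Over all tested probe sets, 3.38% had both MOLF arrays below all 6 arrays of the other 3 strains. The difference from the mean of those 3 strains was -0.88 ± 0.11 (SE, 1.84-fold, limma adjusted p = 0.0260). The call depended on the setting: it held in 2 of 16 alternative settings, with an adjusted p of 0.0137 to 0.663, while the sign was the same in all 16.

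The next genes of this list by the F test did not pass it. Nr3c1, which encodes the glucocorticoid receptor that acts with STAT5 on milk genes, read 5.78 on FVBn and 5.46 and 5.51 on ILn, and was at the floor on the LP, MOLF and NZB arrays (F test adjusted p = 0.417 in limma). The FVBn and ILn arrays are again those highest in the mean of the salivary or lacrimal gland and of the fibroblast markers, and lowest in the actin ratio. The MOLF arrays, lower in the gland markers but above LP and NZB, had Nr3c1 at the floor. The part of any of these was not tested. For ILn against the other 3, the limma adjusted p of Nr3c1 depended on the setting. It was 0.228 in the main setting, 0.897 with the title date as a block and 0.000119 without the filter on dim probe sets. Nr3c1 passed that filter only through the FVBn and ILn arrays. The SD of 0 in LP, MOLF and NZB comes from the floor and is no measured agreement, so these p-values cannot decide whether the strains differ. Ccnd1, which encodes cyclin D1 and is needed for alveolar growth, was 0.64 ± 0.16 (SE) higher in MOLF than the mean of the other 3 (adjusted p = 0.367 in limma), 0.36 without MOLF A and NZB B, and 0.60 by its other probe set. The median difference of the list was -0.14 for ILn arrays, 0.14 for LP, -0.06 for MOLF and -0.02 for NZB, against medians between -0.02 and 0.01 over all tested probe sets.

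In the list for prolactin, JAK2 and STAT5, which holds the kinases, their SOCS inhibitors and the milk protein genes that STAT5 drives, 24 of 27 genes were tested. Of the 24, 1 passed the F test, and the same gene was lower in LP and higher in NZB; none passed in ILn, MOLF or against FVBn. The gene was Csn1s2a, a casein gene, which read 10.70 and 10.82 on NZB, 9.89 and 9.77 on ILn, 9.57 and 9.46 on MOLF, 8.89 and 8.98 on LP, and 9.31 on FVBn. Its strains did not overlap, a pattern whose share over all tested probe sets was not counted. NZB differed from the mean of the other 3 by 1.34 ± 0.11 (SE, 2.53-fold; limma adjusted p = 0.00790) and LP by -1.10 ± 0.11 (2.15-fold; adjusted p = 0.0189 in limma). The NZB call held in 6 of 16 alternative settings and the LP call in 4 of 16, with the sign the same in all.

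Csn2, which encodes beta-casein, had its highest values on the same strain, 11.70 and 11.71 on NZB A and B, and its lowest on LP, 10.76 and 10.33, but did not pass (adjusted p = 0.234 for NZB and 0.159 for LP in limma). Lalba, which encodes alpha-lactalbumin, ran otherwise: 12.25 and 11.97 on LP and 11.60 and 11.41 on NZB (F test adjusted p = 0.284 in limma). The median difference of the list was 0.27 for NZB, 0.12 for ILn, -0.04 for MOLF and -0.06 for LP, against medians between -0.02 and 0.01 over all tested probe sets. Among the strains with 2 arrays, NZB had the lowest Stat5b level and the highest levels of Csn1s2a, Csn2 and Elf5. Of these only Csn1s2a passed the test, and Stat5b on NZB B was at the floor. Lalba differed in NZB by -0.33 from the mean of the other strains with 2 arrays. The other milk protein genes of the list, Csn1s1, Csn3 and Wap, did not pass and are not shown.

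**Figure D3:**
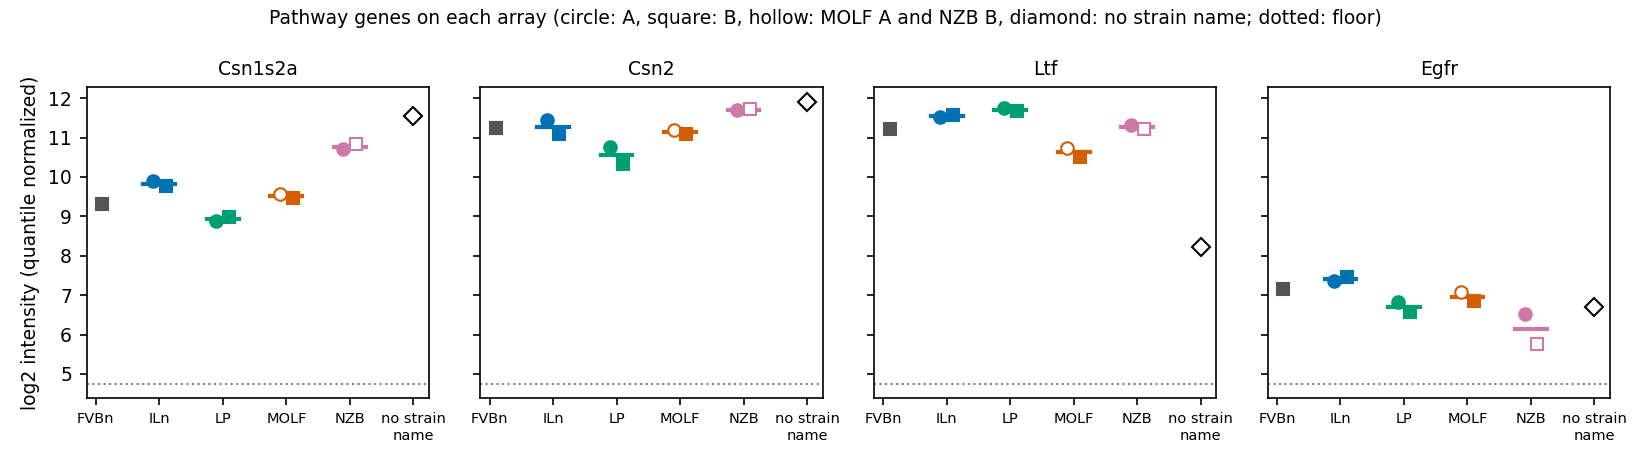
Log2 intensity (vertical axis, quantile normalized) of Csn1s2a, Csn2, Ltf and Egfr on each array by strain name, with points for arrays, a short line for the mean of 2 arrays, hollow points for MOLF A and NZB B, a diamond for the array with no strain name and a dotted line for the floor. Csn1s2a is highest on the NZB arrays (10.70 and 10.82) and lowest on the LP arrays (8.89 and 8.98) among the strains, and Ltf is lowest of the 9 strain arrays on MOLF A and B (10.73 and 10.51).

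The list of EGF family ligands, receptors and the sheddase Adam17, which stands around the missing Areg, had 7 of 13 genes tested, and 0 passed in any of the 6 comparisons in limma. Egfr, which encodes the receptor of amphiregulin, had the smallest F test p of the list (adjusted p = 0.640); by 101842_g_at it read 7.35 and 7.46 on ILn and 6.52 and 5.77 on NZB. ILn differed from the other 3 by 0.80 ± 0.30 (SE, adjusted p = 0.611) and NZB by -0.88 ± 0.30 (adjusted p = 0.513), both in limma; the NZB difference was -0.46 without MOLF A and NZB B. Its other probe sets gave 0.94 and -0.51 (101840_at) and 0.35 and -0.10 (101841_at) for ILn and NZB. Grb2, an adaptor of receptor kinases, and the ligand gene Egf both had an F test adjusted p of 0.827. By 102774_at, Egf was at the floor on MOLF A and NZB B and read 6.17 and 6.18 on their partners, while 161460_r_at gave the opposite, 5.47 and 5.17 on those arrays and the floor on the other 7, so the level of Egf on them is uncertain.

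The list of other luminal and progenitor regulators had 28 of 34 genes tested, and 0 passed in any comparison in limma. Lmo4, which encodes a LIM-only cofactor of luminal transcription factors, came nearest (F test adjusted p = 0.420). It read 10.95 and 10.73 on MOLF, 10.91 and 10.70 on NZB, 10.43 and 10.24 on ILn and 10.21 and 10.39 on LP. All MOLF and NZB arrays thus lay above those of ILn and LP. The share of all tested probe sets with such a split was not counted. Myb, which encodes a transcription factor of dividing progenitors, followed with an adjusted p of 0.632, and Sox4 with 0.682. The Sox4 probe sets opposed each other in ILn, at -0.50 by 160109_at and 0.48 by 101430_at, so its direction there is uncertain.

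Genes whose pattern over the 9 arrays was most like that of a lineage gene were found by Pearson correlation of log2 intensity, as a description with no test, since the points share their strains and arrays. For Elf5 they were Ezr (r = 0.935), Tax1bp3 (0.933) and Lypla1 (0.920) among 6161 probe sets above the floor on all 9 arrays. For Stat5a (100422_i_at) they were Clptm1 (0.932), Tut7 (0.902) and Smim1 (0.900), and for Gata3 they were Pkm (0.906), B3gat3 (0.872) and Psmb4 (0.857). Over the 7 arrays without MOLF A and NZB B, the correlations were 0.809 to 0.940. These arrays are part of the 9 by which the genes were picked, so this is no separate check. How high the best of so many correlations would be among unrelated genes was not measured. Stat5b, Foxa1 and Esr1 were at the floor on some array and were not compared in this way.

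The array with no strain name differed from all 9 strain arrays in 3 of the tested genes, in both directions. Elf5 read 9.18 there, 0.85 below the lowest strain array, Gata3 read 8.77, 1.09 below, and Foxa1 read 7.78, which is 2.54 above the highest. Of the tested probe sets, 17.3% lay below all 9 arrays on it and 16.4% above; 2.54% lay as far below as Elf5, 1.50% as far below as Gata3, and 0.505% as far above as Foxa1. Stat5a (9.87 and 8.96) and Stat5b (6.78) lay within the range of the strain arrays, and all 4 Esr1 probe sets were at the floor. As 1 array of no stated group, it carries no test.

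The levels of cell type markers on that array differed too. Its 9 luminal markers had a mean log2 intensity of 8.50, against 9.35 to 9.76 on the strain arrays, and a summed intensity of 3955 against 7311 to 10124, with none at the floor. The 7 adipocyte markers with a probe set, of 9 listed, had a mean of 9.94 against 6.09 to 6.59 and a sum of 12400 against 822 to 1139, and the 10 skeletal muscle markers had a mean of 11.25 against 5.73 to 9.60. The 8 basal and myoepithelial markers with a probe set, of 9 listed, had a mean of 7.47 against 6.04 to 6.53. The fibroblast mean was 9.15 against 7.78 to 8.42, T cell 6.52 against 4.87 to 5.74, B cell 8.93 against 6.20 to 7.30 and endothelial 7.38 against 5.42 to 6.15. The macrophage and the salivary and lacrimal means lay within the range of the strain arrays. Not every marker followed its list: Krt19 (9.60), Cdh1 (7.93), Lep (9.42) and Trp63 (6.29) lay within that range. The part of these lists in the Elf5, Gata3, Foxa1 and Pgr values of that array was not tested.

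**Figure D4:**
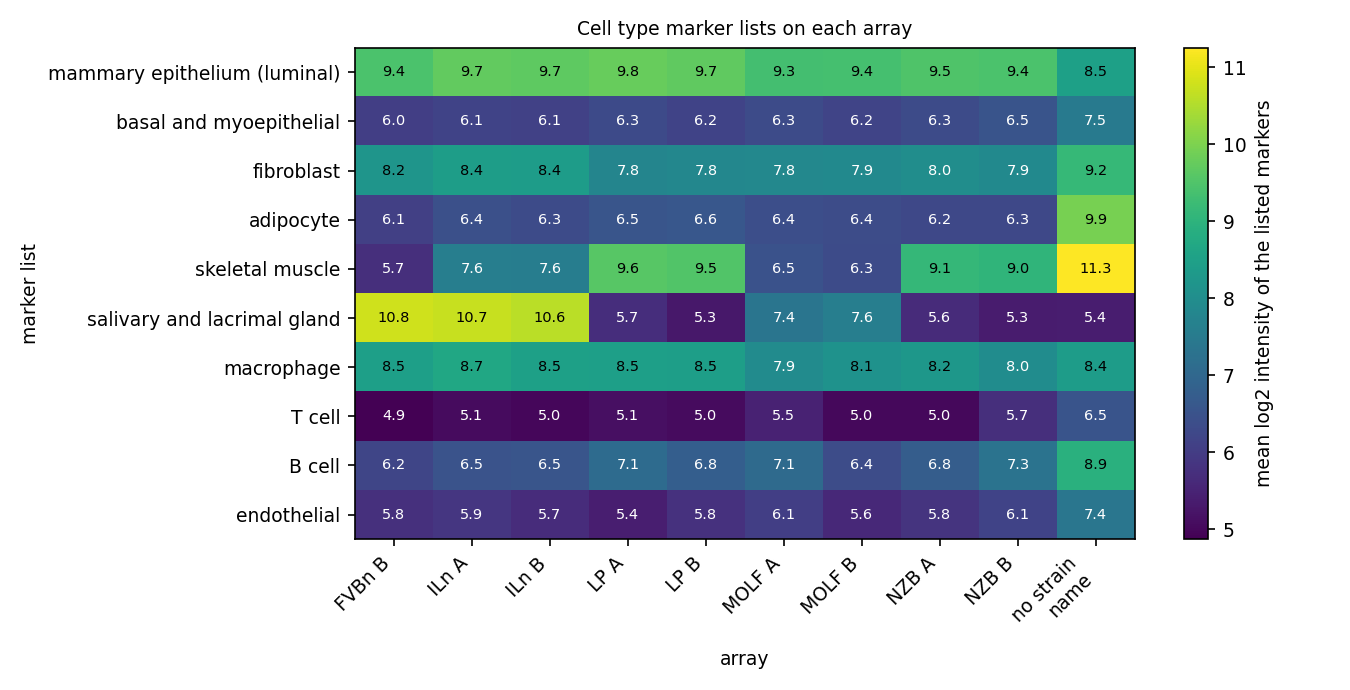
Mean log2 intensity of the measured markers of each cell type list (rows) on each array (columns), with the value printed in each cell and the colour scale at the right. The luminal row is near level over the 9 strain arrays (9.35 to 9.76) and lower on the array with no strain name (8.50), and the salivary and lacrimal row is highest on FVBn B, ILn A and ILn B (10.60 to 10.78).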

How the data were processed

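Total RNA of 10 mammary tumour samples was read on 10 Affymetrix mg_u74av2 arrays. The values used are probe set intensities as deposited by the authors; no source used here names the summarisation method. The trimmed mean of the deposited intensity was 150.0 on every array but ILn A (149.975 to 149.983) and 499.9 on ILn A, a difference that the normalization removes. From 12488 probe sets, 66 controls were dropped. The 9 strain arrays were quantile normalized together, the unnamed array was mapped onto their distribution, values were floored at the 30th percentile (27.0) and log2 was taken. Of 12488 probe sets, 10855 had 1 gene symbol, 396 several and 1237 none; symbols were updated through Entrez identifiers for 10817.

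Groups came from the titles. limma 3.58.1 in R 4.3.3 fitted 5 strain means to 9 arrays, with 4 residual degrees of freedom, a variance trend and Benjamini-Hochberg adjustment over 9899 probe sets; FVBn, with 1 array, is assumed to vary like the others. The median SD within strains was 0.34, which with 2 arrays a strain limits the precision. The fitting code was run on simulated arrays with known changes and independent noise, without the likeness of MOLF A and NZB B. That run cannot show how many calls in these data are false. The members and all lists were chosen with earlier results of these data known. Every probe set of the members is named; of the other lists, genes that passed a test and the 3 with the smallest F test p per list. Where a gene had several tested probe sets, the one with the highest mean counted. Arrays sharing a letter did not vary together (correlations of A minus B between strains from -0.71 to 0.13 over 6 pairs of strains), so the letter is not taken to pair them.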

Additional observations from a re-analysis of the deposited data

Results flagged for a closer look

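Values above the floor on the array with no strain name, which entered no comparison, were found for 2 probe sets that were at or near background on the strain arrays. Pgr, by 98726_at, read 5.03 there and was at the floor of 4.75 on all 9 strain arrays. Foxa1, by 92697_at, read 7.78 there, against 4.75 to 5.24 on the strain arrays. Neither has a replicate.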

How the results depend on the processing

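Of the genes described here, 0 of the tests passed at an adjusted p under 0.05 in limma under any of 16 alternative settings, and the lowest adjusted p was 0.114; each direction given for them held in all, apart from 2 cases. The Esr1 difference in NZB by 93946_at was -0.20 without NZB B, 1.35 without NZB A and 0 without both MOLF A and NZB B, and the Stat5a difference in MOLF by 100423_f_at was -0.040 without MOLF A and 0.66 without MOLF B. The Stat5b difference in NZB ranged from -1.65 to -0.88 and that in ILn from 0.68 to 0.99, the Elf5 difference in NZB from 0.16 to 0.47, and the Gata3 difference in ILn from -0.38 to -0.14; the Stat5a difference in NZB by 100422_i_at ranged from -0.54 to -0.21 and the Foxa1 difference in NZB from 0.05 to 0.35. The counts of probe sets called over the whole array moved more, and the cause was not tested. In the F test, 74 became 36 with median centring, 31 with the array letter as a replicate block, 18 with the title date as a block and 48 without the intensity trend. For ILn, 40 became 13 with the date block. For LP, 31 became 9 with median centring, 9 with the letter block, 0 with the date block (347 at an unadjusted p under 0.05 in limma) and 1 without MOLF A and NZB B. For MOLF, 41 (13 higher, 28 lower) became 23, 26 and 6 with median centring, the letter block and the date block, and 50 (44 higher, 6 lower) without MOLF A and NZB B. For NZB, 10 (4 higher, 6 lower) became 4 with median centring (0 higher, 4 lower), 21 without the filter on dim probe sets, 17 with the filter at 5 arrays, 0 with the date block (487 at an unadjusted p under 0.05 in limma), 22 without MOLF A and NZB B (18 higher, 4 lower) and 4 without the trend. For FVBn, 31 became 102 without the filter, 20 with the letter block and 10 with the date block. Leaving out each array in turn, where the lone array of a strain is assumed to vary like the others, gave 1 to 49 in the F test, 6 to 32 for ILn, 0 to 16 for LP, 3 to 19 for MOLF, 0 to 36 for NZB and 15 to 31 for FVBn. The LP count was 0 on leaving out any 1 array of ILn or LP (298 to 548 at an unadjusted p under 0.05 in limma), and the NZB count 0 without either ILn array (587 and 640). With at most 2 arrays a strain, values near the floor and no measure of spread for FVBn, small differences in these genes could not be resolved.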
